A study of Mus musculus with 20 samples.

Results

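Among 10 mice that received both cisplatin and 7-hydroxycoumarin glucuronide (7-HCG), 7 kidneys carried a high level of Mt2 mRNA and 3 a low one, and these 2 sets are compared here over all genes. Mt2 encodes metallothionein 2, a small metal-binding protein. The members were selected on the Mt2 read count scaled to the library total (CPM), and kidneys below 80 CPM are called spared and the others injured. The sets were therefore made from a measured value of the same libraries, and every difference between them is a description with no test. Mt1 and Mt2 themselves are left out of all counts and claims on differences between the sets. The series holds 20 whole-kidney libraries of polyadenylated RNA from male C57BL/6J mice, an inbred laboratory strain, aged 6 to 8 weeks and weighing 18 to 22 g. There were 4 groups of 5 animals. Control mice received phosphate-buffered saline by mouth and saline by intraperitoneal injection. Cisplatin mice received the oral vehicle and 10 mg/kg cisplatin by intraperitoneal injection. The 2 remaining groups were given 7-HCG orally once a day over 5 days, at either 15 or 30 mg/kg, and the same injection of cisplatin on day 3. All animals were killed 72 h after the injection of cisplatin or saline, and no group received 7-HCG without cisplatin. Spared and injured kidneys thus share the strain, the cisplatin dose and the treatment with 7-HCG.

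Cisplatin is a platinum chemotherapy drug that organic cation transporters carry into proximal tubule cells, where it binds DNA and depletes thiols. The proximal tubule reclaims most of the filtered solutes, burns fatty acids for energy, and loses transporters when it is injured, while surviving cells turn on injury genes such as Havcr1 and Lcn2. Metallothioneins bind zinc, copper and platinum, and their genes are switched on by the metal-sensing factor MTF-1, by glucocorticoids and by acute phase signals. 7-HCG is the glucuronide of umbelliferone, a plant coumarin.

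The 3 spared kidneys had Mt2 levels of 54.8 CPM (15 mg/kg, replicate 1), 44.2 CPM (15 mg/kg, replicate 3) and 48.7 CPM (30 mg/kg, replicate 1). The 7 injured kidneys ranged from 150 to 631 CPM with a median of 273. The members nearest the threshold were replicate 1 at 15 mg/kg inside the spared set and replicate 7 at 30 mg/kg inside the injured set. Control kidneys ranged from 13.5 to 27.0 CPM and cisplatin kidneys from 286 to 622. Spared kidneys thus lay above all controls, and 4 of 7 injured kidneys lay below all kidneys given cisplatin alone. Thresholds of 60 or 120 CPM, or Mt2 scaled by TMM (trimmed mean of M values, edgeR's correction for library composition), gave the same sets.

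**Figure D1:**
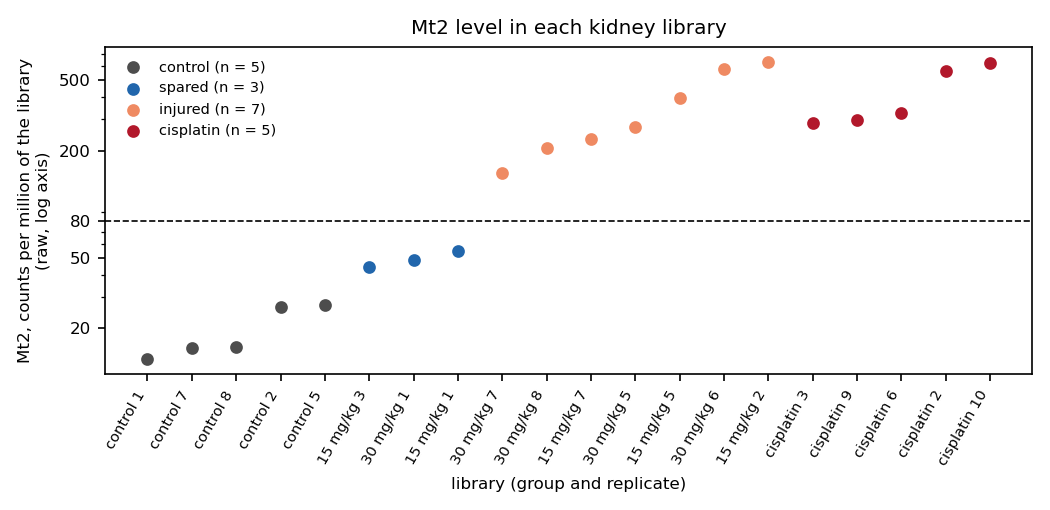
Mt2 in raw CPM (log axis) in each of the 20 libraries, ordered within each set, with the dashed line at the threshold of 80. The 3 spared kidneys sit between 44.2 and 54.8, and the 7 injured kidneys between 150 and 631.

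Each set held kidneys of both doses. At 15 mg/kg 2 of 5 kidneys were spared, and at 30 mg/kg 1 of 5. With 3 spared kidneys a 2-sided Fisher's exact test of these shares can reach no p below 0.167, so it shows nothing about dose. Both sets were sequenced to a similar depth, with 34726604 to 41638560 counts in spared and 25972128 to 49602115 in injured libraries. The 13 mitochondrially encoded mRNAs took 5.59% to 8.01% of counts in spared and 3.04% to 7.53% in injured kidneys, but 24.6% to 45.5% in control and 16.6% to 77.7% in cisplatin. Levels of the 7-HCG kidneys set beside the other groups therefore come from libraries that differ in composition, and treatment and library cannot be told apart there. Kidney markers were present in every library, and Lrp2, for the endocytic receptor megalin, was at 332 CPM or more in each 7-HCG kidney and at 119 or more in all others.

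The promoter of the gene that sorted the kidneys is shown because MTF-1 binds metal response elements. These were searched for with the letters TGCNCNC, where N is any base. On the opposite strand those letters read GNGNGCA. The window runs from 250 bases before to 50 bases after the annotated start (RefSeq, GRCm38.p6; Mt2, chr8:94172368-94172667, plus strand), with the matches in capitals.
Mt2: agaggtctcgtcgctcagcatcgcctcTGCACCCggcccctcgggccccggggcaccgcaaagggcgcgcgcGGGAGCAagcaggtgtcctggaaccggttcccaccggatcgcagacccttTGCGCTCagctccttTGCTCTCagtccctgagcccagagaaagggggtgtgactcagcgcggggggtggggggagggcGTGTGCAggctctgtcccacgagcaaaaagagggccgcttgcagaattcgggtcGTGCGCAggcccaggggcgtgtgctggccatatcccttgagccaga
It held 6 matches, a number that 0.426% of the 11267 tested genes with a promoter in the table reached and 0.263% of all 27025 promoters. Which of these matches are elements that MTF-1 binds was not tested. A single match is common, with 63.7% of those tested genes holding at least 1 and 53.6% of all promoters.

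Over the 14856 tested genes other than Mt1 and Mt2, the libraries of the 2 sets did not overlap for 668 genes that were higher (4.50%) and for 668 that were lower (4.50%) in injured kidneys. Of these, 340 were at least 2-fold higher (2.29%) and 405 at least 2-fold lower (2.73%). With Mt1 and Mt2 left out, the leading principal component of the 10 libraries carried 34.3% of the variance and placed the spared kidneys between -62.5 and -37.7. Injured kidneys lay between -4.89 and 73.1 on it, with replicates 7 and 8 at 30 mg/kg nearest to the spared set and replicate 6 at 30 mg/kg farthest. Of the spared kidneys, replicate 1 at 15 mg/kg was the nearest to the injured set. Without it, the counts at 2-fold were 516 higher and 659 lower. They were 361 and 529 without replicate 3 at 15 mg/kg, and 373 and 523 without replicate 1 at 30 mg/kg. With fewer libraries, more genes stand apart by construction.

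Tubular injury genes were higher in injured kidneys. In whole-kidney RNA, a change in the number of cells of a type and a change in RNA per cell cannot be told apart, for these and all other genes. Of 22 tubular injury markers measured, 12 were higher in every injured kidney than in any spared one and none was lower, against 4.50% of all genes in each direction. That share applies to the counts of every later list that compares injured with spared kidneys. The median difference over the list was 1.44 on the log2 scale (1.42 within 15 mg/kg, 1.53 within 30 mg/kg), against 0.03 over all genes. The mean log2 CPM of the list was 3.71 to 4.74 in spared and 5.32 to 6.99 in injured kidneys, without overlap. The sets and the list were chosen with earlier results of these data known, so this is no separate check of the label. Control kidneys had 3.84 to 5.26 and cisplatin kidneys 5.43 to 5.98. In what follows the values of the spared kidneys are given in the order replicate 1 and replicate 3 at 15 mg/kg, then replicate 1 at 30 mg/kg, and CPM are TMM-scaled. Lcn2 encodes NGAL, an iron-siderophore-binding protein measured in urine as a sign of tubular injury (GRCm38, chromosome 2, 32384633 to 32388252). It stood at 40.4, 9.83 and 13.3 CPM in spared kidneys and at 156 to 837 CPM (median 387) in injured ones. The means were 21.2 ± 16.7 (SD, n = 3) and 444 ± 264 (SD, n = 7), a ratio of 20.9. Spared kidneys were within the control range of 5.04 to 44.4 CPM for Lcn2, and the injured kidneys spanned that of cisplatin alone (243 to 457 CPM). Control replicates 2 and 5 had 44.4 and 22.6 CPM of Lcn2, and the other controls 10.3 CPM or less. Krt20, a keratin of damaged tubule cells, stood at 3.89, 0.465 and 0.187 CPM in spared and at 13.7 to 697 CPM (median 75.9) in injured kidneys, with a log2 difference of 6.72. Sox9, whose product marks tubule cells under repair, was at 1.72, 0.31 and 0.723 against 3.03 to 50.3 CPM (median 6.99). Spp1, for the secreted phosphoprotein osteopontin, was at 2060, 1079 and 918 against 3735 to 13198 CPM (median 5580). The chaperone gene Clu was at 513, 446 and 453 against 978 to 1727 CPM, and the stress cytokine gene Gdf15 at 36.5, 10.4 and 25.3 against 104 to 472 CPM. All 3 spared kidneys lay above the controls for Clu (66.3 to 237 CPM), and none did for Gdf15 (16.2 to 58.5 CPM). Havcr1, for the injury receptor KIM-1, overlapped because spared replicate 1 at 15 mg/kg (30.4 CPM) exceeded the lowest injured kidney (25.7 CPM). The other spared kidneys had 4.96 and 7.74 CPM of Havcr1, the injured median was 110 CPM, and controls had 0.691 to 5.80 CPM. That kidney was the highest of the spared set for Lcn2, Krt20, Sox9, Spp1, Clu and Gdf15 as well.

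**Figure D2:**
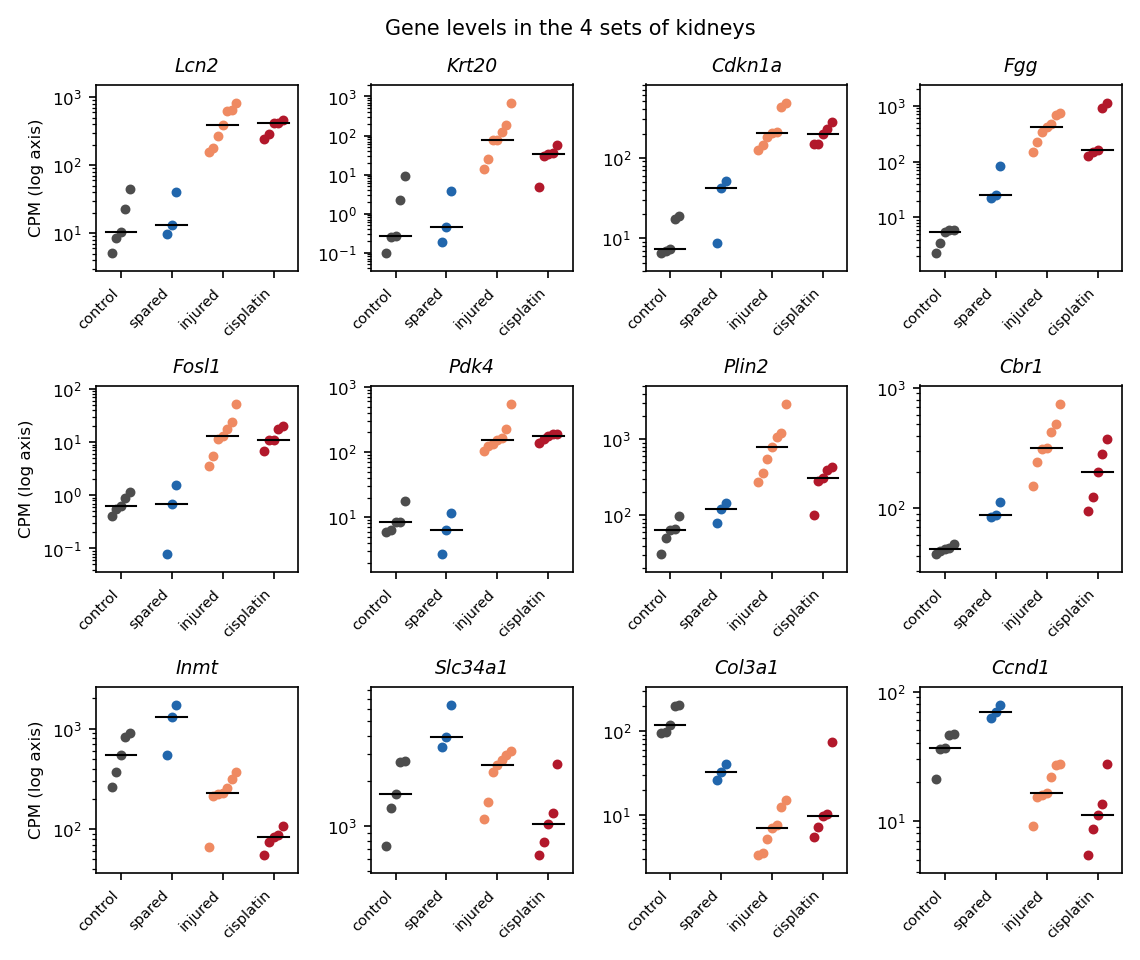
TMM-scaled CPM (log axes) of 12 genes in each control (n = 5), spared (n = 3), injured (n = 7) and cisplatin (n = 5) kidney, with bars at the medians. Spared and injured kidneys do not overlap in any of the 12, and spared Lcn2, Krt20 and Pdk4 reach no higher than 40.4, 3.89 and 11.8 CPM.

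Acute phase genes formed a further group that was higher in injured kidneys. The 3 fibrinogen chain genes Fga, Fgb and Fgg lie next to each other on chromosome 3 and encode a clotting protein that injured tubules also make. Of 16 acute phase genes measured, 10 were higher without overlap and none was lower, with a median log2 difference of 1.77. Fgg (chromosome 3, 83007724 to 83015049) stood at 81.9, 21.9 and 25.7 CPM in spared and at 148 to 747 CPM (median 417) in injured kidneys, and its means were 43.2 ± 33.6 (SD, n = 3) and 432 ± 221 (SD, n = 7). Fga stood at 118, 28.8 and 50.3 against 149 to 752 CPM, and Fgb at 8.74, 1.57 and 2.33 against 9.33 to 77.5 CPM. All 3 spared kidneys lay above the controls for Fgg (2.27 to 6.01 CPM), Fga (5.48 to 12.0) and Fgb (0.166 to 0.718). Saa1, for the acute phase protein serum amyloid A, was at 0.395, 0.258 and 0.0699 CPM in spared and 4.37 to 68.7 CPM in injured kidneys. Saa1 has close copies whose reads it may share. Lif and Il1f6, cytokines of the interleukin-6 and interleukin-1 families, were at 6.18 to 14.0 and 3.00 to 13.6 CPM in injured kidneys. Spared kidneys had 2.06, 0 and 0.839 CPM of Lif and 2.10, 0.0516 and 1.05 CPM of Il1f6. The count of 0 for Lif in spared replicate 3 at 15 mg/kg allows a level of up to 0.0774 CPM (3 counts), a limit that covers counting error only.

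Targets of p53, the transcription factor that DNA damage activates, were higher in injured kidneys as a group. Of 34 targets measured, 19 were higher without overlap and none was lower, and the median log2 difference was 1.31. Without spared replicate 3 at 15 mg/kg, the lowest of the spared kidneys on this list, the median was 0.97. Cdkn1a, for p21, which blocks cyclin-dependent kinases (chromosome 17, 29090979 to 29100722), stood at 51.4, 8.72 and 42.4 CPM in spared and at 126 to 483 CPM (median 201) in injured kidneys. Spared replicate 3 lay inside the control range of Cdkn1a (6.53 to 18.8 CPM), and the other spared kidneys above it. Psrc1, for a spindle protein, was at 4.35, 1.19 and 2.17 against 8.39 to 24.3 CPM. Eda2r, for a death receptor of the TNF family, was at 1.09, 0.129 and 0.163 against 1.73 to 5.57 CPM. Sesn2, for the stress-induced inhibitor of mTORC1 signalling sestrin 2, was at 57.9, 43.2 and 70.2 against 82.3 to 138 CPM. Mdm2, whose product degrades p53, overlapped at 28.2, 16.8 and 12.5 against 22.7 to 74.1 CPM. Of 26 genes of the BCL2 family and caspases, 8 were higher without overlap and none was lower, with a median of 0.25. These included the BH3-only genes Bbc3 (log2 difference 1.89) and Pmaip1 (1.60), whose products, PUMA and NOXA, promote cell death. Bax, for a pore-forming death effector, was at 41.2, 36.3 and 36.3 against 44.8 to 97.1 CPM and shares its locus with another gene of the table. The survival gene Bcl2 overlapped, at 7.45, 7.20 and 5.62 against 3.55 to 8.36 CPM.

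Stress kinase genes and their early response targets differed unevenly. Of 26 genes for p38 kinases, their activators and phosphatases, 6 were higher, 1 was lower, and the median log2 difference was 0.40. The gene that was lower is Mapk14, for p38α itself, at 91.6, 93.2 and 101.3 CPM in spared and 61.0 to 91.2 CPM (median 81.8) in injured kidneys, a log2 difference of -0.29. Mapk13, for p38δ, was higher, at 25.8, 25.6 and 25.6 against 27.6 to 82.7 CPM (median 40.9). Map3k6, for an upstream kinase, was at 7.06, 6.01 and 6.36 against 14.3 to 42.5 CPM, and the phosphatase gene Dusp8 at 3.64, 2.32 and 2.96 against 8.67 to 25.3 CPM. These are RNA levels and say nothing of kinase phosphorylation. Immediate early genes are switched on without new protein synthesis, and many encode transcription factors. Of 25 genes listed as such, 14 were higher and 1 was lower, with a median of 1.44. Fosl1, for the AP-1 subunit FRA1, was at 1.58, 0.0774 and 0.676 against 3.57 to 53.2 CPM (median 13.1). Myc, a growth regulator, was at 8.12, 5.39 and 6.53 against 20.6 to 72.5 CPM, and Btg2, an antiproliferative gene, at 19.8, 11.1 and 16.5 against 54.0 to 241 CPM. Atf3, a stress-induced repressor, was at 5.99, 1.39 and 4.99 against 9.47 to 23.0 CPM. Without replicate 6 of the 30 mg/kg group and replicate 5 of the 15 mg/kg group, both injured and rich in adipose markers, the list median was 1.07.

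AP-1, the dimer of FOS and JUN proteins, binds TGANTCA, a motif that equals its own reverse complement. The letters occurred at least once in the promoter window of 40 of 243 genes (16.5%) that were at least 2-fold higher without overlap and had a promoter in the table. They occurred in 32 of 288 genes (11.1%) that were lower, in 744 of 11267 tested genes (6.60%) and in 8.97% of all 27025 promoters. Matches of this kind are counts of letters, not of bound sites. The windows of 2 higher genes (Lif and Fgb) and of 1 lower gene (Clec2h) are shown with the match in capitals (RefSeq, GRCm38.p6). They are Lif on the plus strand of chr11:4257318-4257617, Fgb on the minus strand of chr3:83049814-83050113 and Clec2h on the plus strand of chr6:128662135-128662434.
Lif: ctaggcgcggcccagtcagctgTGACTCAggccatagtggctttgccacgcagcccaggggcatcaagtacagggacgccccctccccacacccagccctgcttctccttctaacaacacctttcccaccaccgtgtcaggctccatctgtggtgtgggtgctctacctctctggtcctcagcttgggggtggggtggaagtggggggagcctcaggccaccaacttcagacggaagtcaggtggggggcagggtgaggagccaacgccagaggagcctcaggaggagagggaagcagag
Fgb: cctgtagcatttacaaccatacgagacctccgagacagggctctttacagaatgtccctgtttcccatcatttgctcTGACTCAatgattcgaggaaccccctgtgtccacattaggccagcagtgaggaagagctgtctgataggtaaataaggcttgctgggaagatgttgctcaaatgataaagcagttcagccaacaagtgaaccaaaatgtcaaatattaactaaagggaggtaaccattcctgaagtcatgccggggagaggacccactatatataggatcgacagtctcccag
Clec2h: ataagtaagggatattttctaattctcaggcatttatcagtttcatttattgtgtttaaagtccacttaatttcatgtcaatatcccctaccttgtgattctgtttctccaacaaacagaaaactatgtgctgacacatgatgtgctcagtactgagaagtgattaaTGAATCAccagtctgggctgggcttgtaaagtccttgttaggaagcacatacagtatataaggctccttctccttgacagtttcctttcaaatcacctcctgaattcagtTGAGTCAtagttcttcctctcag
The match lay 228 bases before the start in Lif and 173 before it in Fgb. Clec2h held 2 matches, 83 bases before and 27 after the start.

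Metabolic genes differed in both directions. Of 37 fatty acid oxidation genes and further targets of PPARα, the receptor that senses fatty acids, 17 were higher without overlap and none was lower, with a median log2 difference of 0.63. Their mean log2 CPM was 6.49 to 6.64 in spared and 7.14 to 7.65 in injured kidneys. Pdk4, which encodes a kinase that shuts pyruvate out of mitochondria, was at 11.8, 2.68 and 6.43 CPM in spared and 102 to 556 CPM (median 152) in injured kidneys. Spared Pdk4 was within or below the control range (6.01 to 17.6 CPM), whose top was control replicate 5, with the other controls at 8.46 CPM or less. Plin2, for the coat protein of lipid droplets, was at 143, 79.9 and 122 against 273 to 2950 CPM (median 801), and its means were 115 ± 32.3 (SD, n = 3) and 1027 ± 916 (SD, n = 7). Angptl4, for a secreted lipase inhibitor, was at 110, 80.4 and 166 against 295 to 863 CPM, and the fatty acid hydroxylase gene Cyp4a14, of a family of close copies, at 544, 361 and 295 against 888 to 2478 CPM. Of 29 targets of NRF2, the oxidative stress regulator, 8 were higher and none was lower (median 0.67). Cbr1, for a carbonyl reductase, was at 112, 84.5 and 88.0 against 153 to 741 CPM, and its paralog Cbr3 at 5.46, 2.53 and 3.29 against 13.7 to 160 CPM. Ephx1, for microsomal epoxide hydrolase, was at 82.6, 60.7 and 87.2 against 198 to 382 CPM. Of 16 glucocorticoid-responsive genes 7 were higher and 1 was lower (median 0.64), among them the transcription factor gene Zbtb16 at 1.48, 1.29 and 1.70 against 3.74 to 21.0 CPM. Of 37 genes for amino acid catabolism and gluconeogenesis 4 were higher and 1 was lower. Pck1, for the gluconeogenic enzyme PEPCK, just cleared the spared kidneys, at 1197, 511 and 1263 against 1263 to 3837 CPM, where replicate 1 at 30 mg/kg had 1262.75 and injured replicate 2 at 15 mg/kg 1263.28. Of 30 genes of the unfolded protein and integrated stress responses 6 were higher and none was lower (median 0.30), led by the serine synthesis gene Psat1 at 27.9, 12.7 and 20.9 against 32.9 to 170 CPM. Of 28 genes for cholesterol synthesis and other SREBP targets, 7 were lower without overlap and none was higher (median -0.51). The sterol demethylase gene Cyp51 was at 199, 210 and 184 CPM in spared and 43.4 to 137 CPM in injured kidneys.

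**Figure D3:**
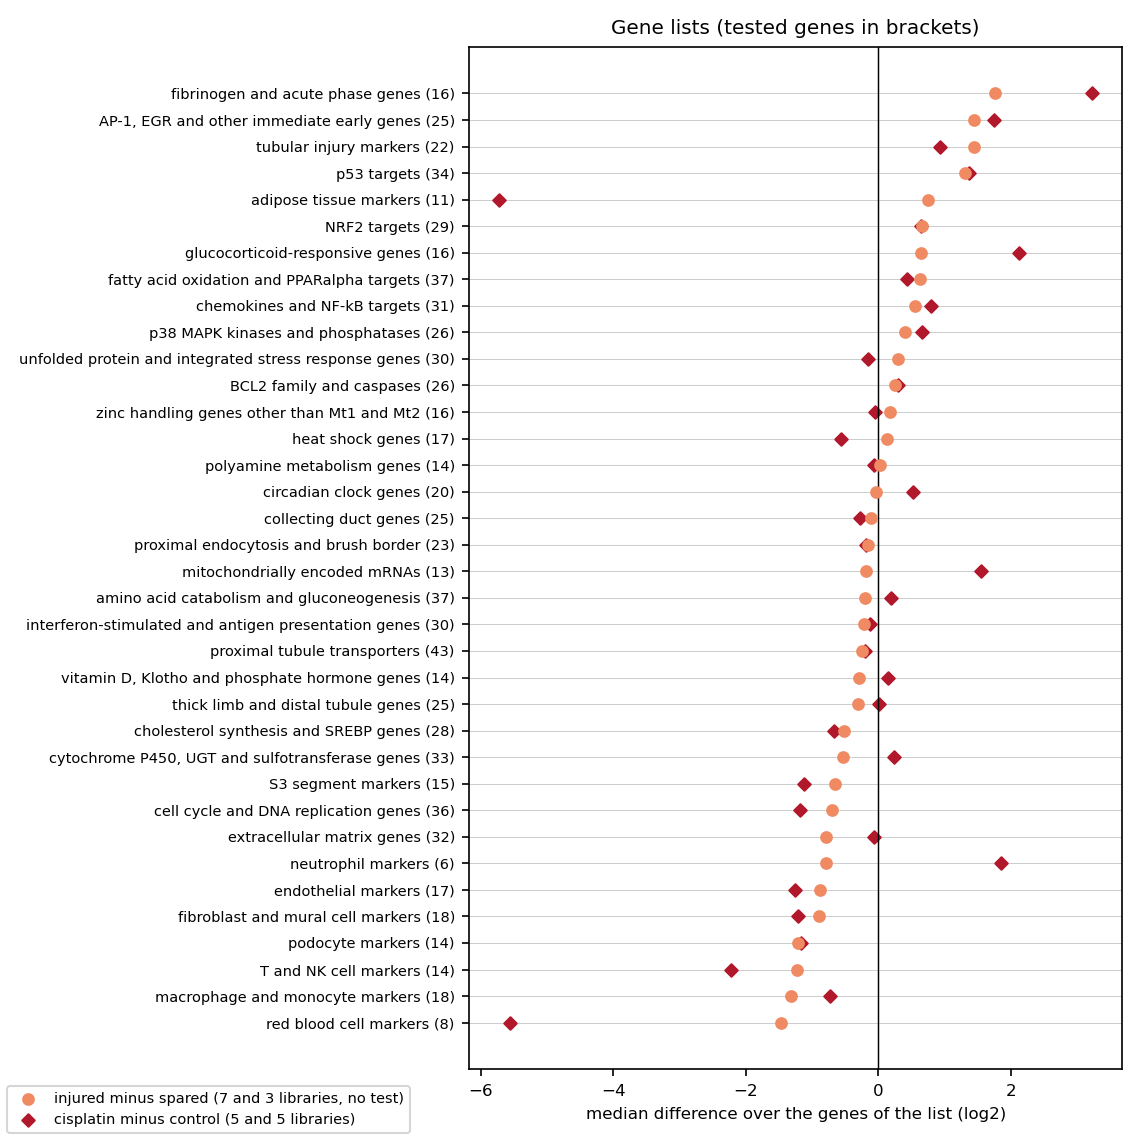
Median log2 difference over the measured genes of each of 36 lists (number in brackets), as injured minus spared (circles) and as cisplatin minus control (diamonds). Injured-minus-spared medians run from -1.47 for red blood cell markers to 1.77 for acute phase genes.

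Functional genes of the proximal tubule mostly overlapped between the sets, and those that stood apart were lower in injured kidneys. Of 43 transporters 4 were lower (9.30%, against 4.50% of all genes) and none was higher (median -0.25). Of 23 genes for endocytosis and the brush border 4 were lower (17.4%) and none was higher (median -0.15). Slc34a1, for the main phosphate transporter (chromosome 13, 55398187 to 55415592), stood at 3351, 3894 and 6439 CPM in spared and at 1113 to 3155 CPM (median 2547) in injured kidneys. Lrp2 stood at 737, 773 and 836 against 332 to 659 CPM. Slc22a6, for the organic anion transporter OAT1, overlapped, at 606, 945 and 951 against 653 to 892 CPM. Pdzk1, for a scaffold of brush border transporters, was at 232, 260 and 330 against 61.5 to 198 CPM. Of 15 S3 markers, which label the straight end of the proximal tubule, 4 were lower and none was higher (median -0.65). The amino acid transporter gene Slc7a13 was at 249, 227 and 215 CPM in spared and 30.1 to 174 CPM in injured kidneys. Of 33 cytochrome P450, UGT and sulfotransferase genes 9 were lower and 5 were higher (median -0.53), and Ugt2b38, of a family of close copies, was at 439, 620 and 567.7 against 71.3 to 391 CPM. Of 25 collecting duct genes none stood apart in either direction (median -0.10). Of 25 genes of the thick limb and distal tubule 1 was higher and 1 was lower (4% each, near the share of all genes, median -0.30).

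Among genes with a mean of at least 5 CPM, those with the lowest log2 differences included genes of several origins. Inmt, for a methyltransferase of small amines (chromosome 6, 55170626 to 55175043), stood at 550, 1317 and 1738 CPM in spared and at 67.0 to 371 CPM (median 230) in injured kidneys. The means were 1202 ± 602 (SD, n = 3) and 239 ± 94.8 (SD, n = 7), a ratio of 5.02 for spared over injured. Hsd3b2, for a steroid dehydrogenase, was at 35.0, 99.3 and 74.8 against 5.86 to 24.6 CPM, and the lectin gene Clec2h at 29.1, 60.2 and 60.9 against 2.49 to 19.5 CPM. Pvalb, for a calcium buffer of the distal convoluted tubule, was at 8.10, 31.4 and 21.4 against 0.403 to 6.70 CPM. Dbp, an output gene of the circadian clock that overlaps another gene of the table, was at 35.0, 74.3 and 72.0 against 6.33 to 21.5 CPM. Of 20 clock genes 5 were lower and 1 was higher, while the list median was -0.04. Of 36 genes for the cell cycle and DNA replication 6 were lower and none was higher (median -0.70). Without spared replicate 3 at 15 mg/kg that median was -0.42. Ccnd1, for cyclin D1, stood at 62.7, 68.9 and 79.2 CPM in spared and at 9.04 to 27.2 CPM (median 16.4) in injured kidneys, and all 3 spared kidneys exceeded the controls (20.9 to 47.2 CPM). Mcm5, for a subunit of the replicative helicase, was at 4.65, 8.59 and 5.596 against 2.02 to 3.90 CPM.

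Many markers of fibroblasts, endothelium and macrophages were lower in injured kidneys, beside all the gene groups above, where 4.50% of all genes were lower. Of 18 fibroblast and mural cell markers 7 were lower without overlap and none was higher, and their mean log2 CPM was 4.20 to 4.30 in spared and 2.65 to 3.84 in injured kidneys (control 5.03 to 6.11). Of 17 endothelial markers 5 were lower and none was higher, at 4.46 to 4.68 against 2.42 to 4.37. Of 18 macrophage and monocyte markers 7 were lower and 1 was higher, at 2.90 to 2.97 against 0.46 to 2.54. The higher one was Cd14, for the lipopolysaccharide co-receptor, at 10.5, 8.80 and 8.91 against 20.5 to 97.7 CPM. Of 14 podocyte markers 1 was lower (7.14%, near the share of all genes), and their list means overlapped, at 3.67 to 4.11 against 1.98 to 3.94. Their median log2 difference was nevertheless -1.21 (-1.56 within 15 mg/kg, -1.05 within 30 mg/kg). Of 14 T and NK cell markers 2 were lower, at -0.76 to -0.62 against -2.24 to -1.44. Of 6 neutrophil markers tested 1 was lower, and the defining marker Ly6g was at 0 counts in all 20 libraries. No podocyte, endothelial or fibroblast marker was at 0 in any 7-HCG kidney, while 11 of 16 T and NK cell markers in the table were at 0 in at least 1 injured kidney. The part of these cells in the other differences was not tested. Of 32 extracellular matrix genes 14 were lower and 2 were higher (median -0.79), more in number than in any other list of lower genes. Col3a1, for a fibrillar collagen (chromosome 1, 45311538 to 45349706), stood at 26.3, 32.3 and 40.8 CPM in spared and at 3.33 to 15.0 CPM (median 6.94) in injured kidneys. Col1a1 was at 30.1, 41.1 and 39.1 against 2.64 to 18.0 CPM, and Col14a1 at 11.9, 16.1 and 22.5 against 1.56 to 7.09 CPM. All 3 collagens were below the controls in both sets (Col3a1 in controls 93.7 to 205 CPM). Fn1, for fibronectin, was at 12.2, 14.6 and 17.9 against 2.01 to 12.1 CPM. Among endothelial genes, Plvap, for the diaphragm of fenestrated capillaries, was at 154, 180 and 199 against 9.70 to 144 CPM, and the glycoprotein gene Emcn at 38.03, 44.5 and 48.5 against 4.47 to 34.4 CPM. C1qc, for a complement subunit of macrophages, was at 19.7, 19.8 and 24.3 against 1.46 to 18.5 CPM. Of 31 chemokine and NF-κB genes 6 were higher and 1 was lower (median 0.55). Cxcl1, a neutrophil-attracting chemokine, was at 3.72, 0.206 and 1.14 against 4.06 to 42.3 CPM. Cxcl9, a chemokine that attracts T cells, was the lower one, at 2.71, 1.91 and 3.10 against 0 to 1.23 CPM. Of 30 interferon-stimulated and antigen presentation genes none stood apart.

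**Figure D4:**
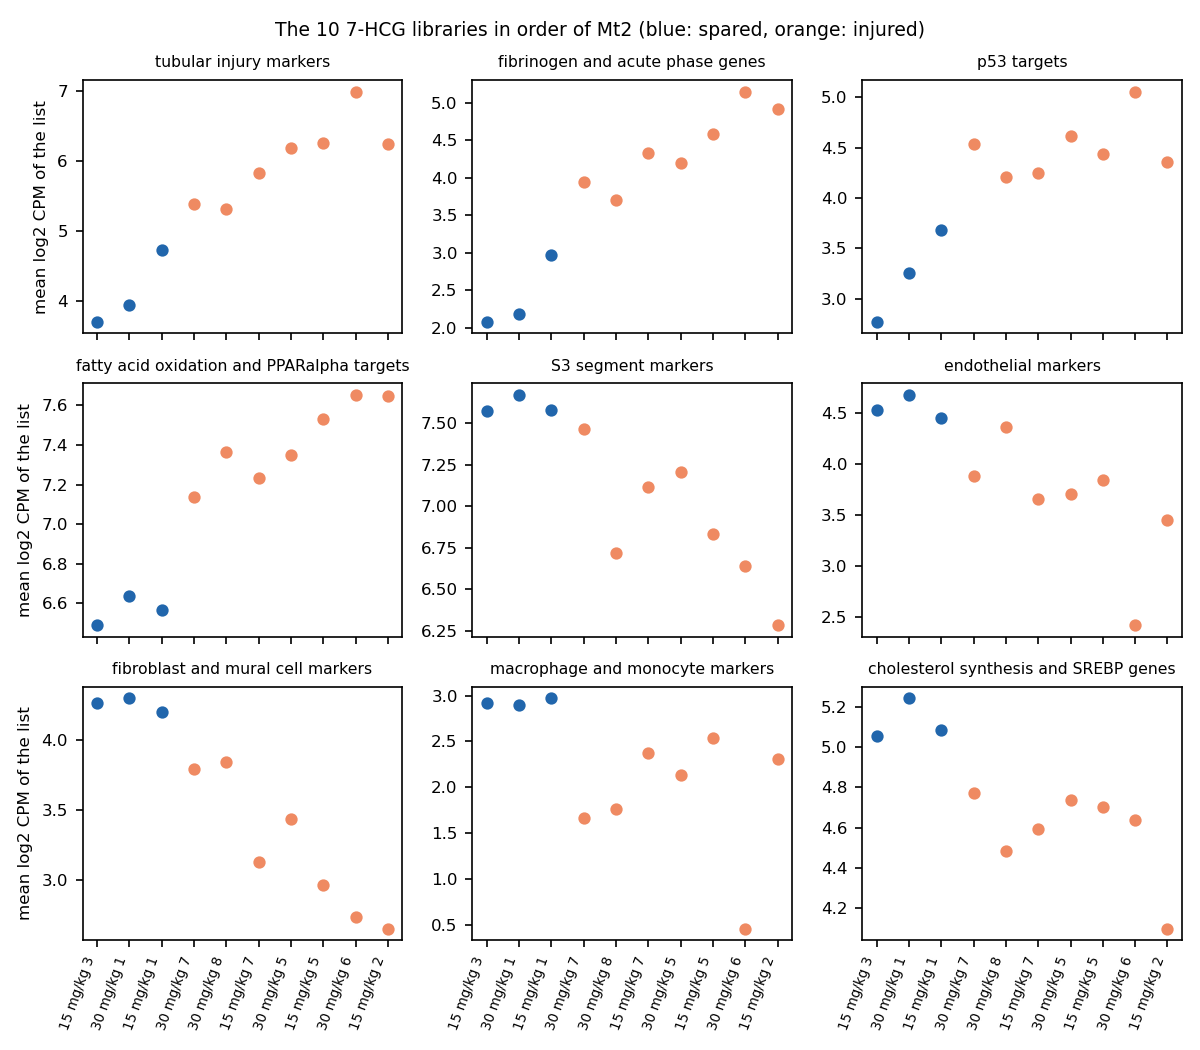
Mean log2 CPM of 9 gene lists in the 10 kidneys given 7-HCG, ordered by Mt2 (spared in blue, injured in orange). The means of the injury list run from 3.71 to 6.99, and replicate 6 at 30 mg/kg has the lowest endothelial (2.42) and macrophage (0.46) means.

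The injured kidneys varied widely among themselves. Replicates 7 and 8 at 30 mg/kg had the lowest injury list means, 5.39 and 5.32, and replicate 6 of the same dose had the highest, 6.99. That kidney was also the highest for Krt20 and Plin2, and its endothelial list mean of 2.42 was the lowest of the 10. Without it the median differences were -0.72 for endothelial, -1.07 for macrophage and -0.81 for fibroblast and mural cell markers, against -0.89, -1.31 and -0.90 with it. Within 15 mg/kg these medians were -0.84, -0.68 and -1.48, and within 30 mg/kg -1.03, -1.85 and -0.86. With 2 spared kidneys at 15 mg/kg and 1 at 30 mg/kg, a difference between doses cannot be told from a difference between animals. Adipose tissue markers were highest in replicate 6 at 30 mg/kg and in replicate 5 of the 15 mg/kg group, with list means of up to 4.63 against 1.03 to 2.56 in spared kidneys. The adipose median difference of 0.75 became -0.31 without those 2 kidneys, while 361 genes were then at least 2-fold higher without overlap and 415 lower. Red blood cell genes were high in spared replicate 3 at 15 mg/kg alone among the 10, with Hbb-bs, a globin gene of a family of close copies, at 36.2 CPM against 0.679 CPM or less in the other 9. The red blood cell median difference of -1.47 was -0.21 without that kidney.

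The contrast of cisplatin with control compares 10 other libraries, and asks whether the same genes differ where the groups come from the labels. It was tested over all 14858 genes with edgeR's quasi-likelihood test and Benjamini-Hochberg adjustment. The fit held all 20 libraries, so the filter, the scaling and the spread behind each call also drew on the injured and spared kidneys. The calls are therefore not independent of those kidneys. At an adjusted p below 0.05, 1250 genes rose (8.41%) and 744 fell (5.01%), 13.4% in all. With library totals as the only scaling 207 rose and 676 fell, and the median over all genes moved from -0.01 to -0.35 on the log2 scale. Of the 340 genes at least 2-fold higher without overlap in injured kidneys, 170 (50.0%) rose with cisplatin, 2 fell and 168 did not pass, and 301 (88.5%) had a positive difference, against 49.1% of all genes. Of the 405 lower genes, 109 (26.9%) fell, none rose and 361 (89.1%) had a negative difference. Median differences with cisplatin were 1.57 and -1.19 on the log2 scale in the 2 sets. The higher genes held 13.6% of all genes that rose and the lower genes 14.7% of all that fell, so most cisplatin calls lie outside them. With control and cisplatin libraries alone in the fit, 789 genes rose and 546 fell. Of the higher genes 183 then rose, and of the lower genes 133 fell. Across the 14856 genes the differences of the 2 contrasts correlated with Pearson's r of 0.553 and Spearman's rho of 0.477, as a description over genes that are not independent. Within 30 mg/kg alone, where only 1 kidney was spared, 1736 genes were higher and 65.9% of these had a positive cisplatin difference.

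**Figure D5:**
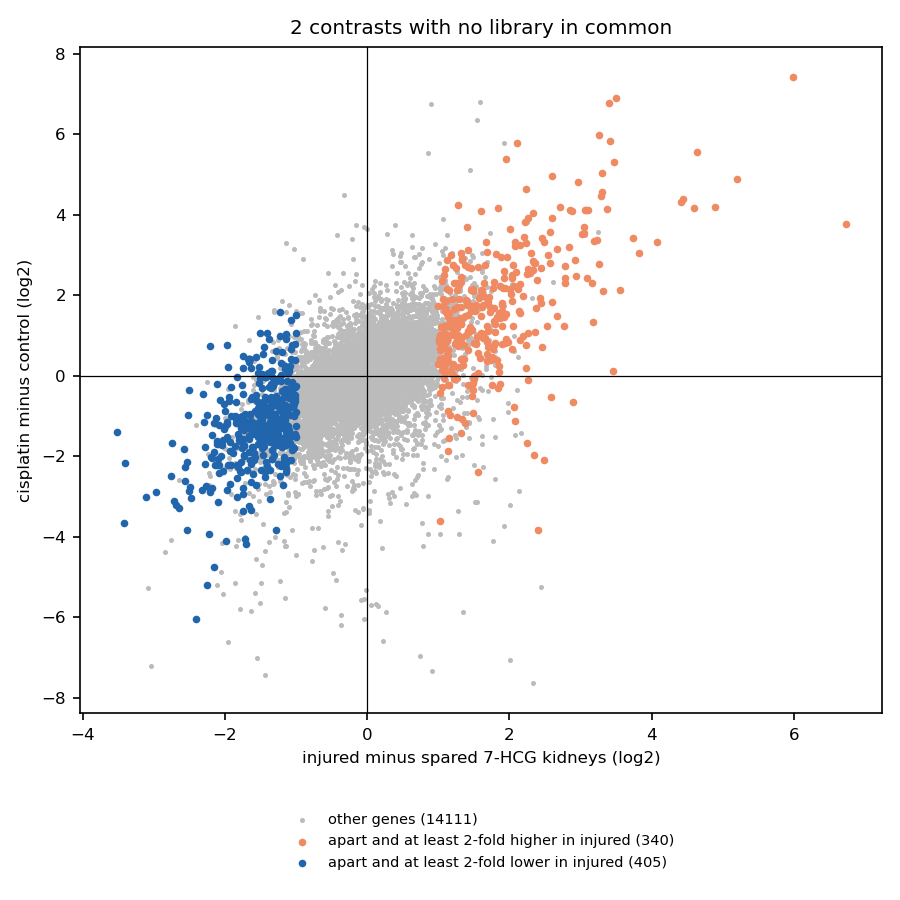
Each point is a tested gene, with its injured-minus-spared log2 difference on the horizontal axis and its cisplatin-minus-control log2 difference on the vertical axis. Of the 340 higher genes 301 lie above 0 and of the 405 lower genes 361 lie below 0 on the vertical axis.

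Among the named genes the labelled contrast passed the test for members of each main group. Fgg rose by 6.76 ± 1.08 (SE) on the log2 scale with cisplatin (edgeR quasi-likelihood test, adjusted p = 0.00242), and Fga by 4.08 ± 0.70 (edgeR adjusted p = 0.00276). Cdkn1a rose from 11.5 ± 6.19 to 198 ± 55.3 CPM (SD, n = 5 each; edgeR adjusted p = 0.00443), higher in 5 of 5 cisplatin kidneys than in any control. Psrc1 rose by 4.18 and Sesn2 by 1.73 on the log2 scale (edgeR adjusted p = 0.00242 and 0.00201). Mapk13 rose by 2.16 and Map3k6 by 4.09 on the log2 scale, and by 1.43 and 2.68 without cisplatin replicates 9 and 10, which hold 77.7% and 70.6% mitochondrial mRNA. Zbtb16 rose by 3.81, Angptl4 by 3.23 and Bhmt, for an enzyme of homocysteine remethylation, by 2.75 on the log2 scale (edgeR adjusted p = 0.00308, 0.00242 and 0.00341). Lcn2, Sox9, Spp1 and Cbr1 rose by 4.32, 5.30, 2.62 and 2.24, but none of these 4 calls held without control replicates 2 and 5, which are rich in adipose markers. The differences themselves were then 5.51, 5.66, 2.69 and 2.23 (edgeR adjusted p = 0.0515 to 0.0869). Fgb rose by 6.89 (edgeR adjusted p = 0.00382), and by 4.42 without cisplatin replicates 9 and 10. Its call ended with limma voom. Krt20, with the largest difference between injured and spared kidneys among the named genes, was higher by 3.77 ± 1.56 after cisplatin without passing (edgeR adjusted p = 0.118). DESeq2 called Krt20, as did edgeR with control and cisplatin libraries alone in the fit. Plin2 was higher by 2.30 ± 0.78 without passing (edgeR adjusted p = 0.0554), and DESeq2, limma voom and that smaller fit called it. Inmt fell by 2.84, Slc22a28, for an organic anion transporter of the kidney, by 2.70 and Ugt2b38 by 2.51, and these 3 calls ended without cisplatin replicates 9 and 10, where the differences were -2.72, -2.27 and -2.08 (edgeR adjusted p = 0.0581 to 0.0926).

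Gene lists can be read the same way in the labelled contrast, where 8.41% of all genes rose and 5.01% fell. Of the acute phase genes 11 of 16 rose with cisplatin and none fell, of the p53 targets 20 of 34 and none, and of the immediate early genes 14 of 25 and none. Of the injury markers 8 of 22 rose and 1 fell, of the fatty acid oxidation genes 9 of 37 rose and 1 fell, and of the p38 genes 11 of 26 rose and 1 fell. Of the NRF2 targets 11 of 29 rose and 1 fell, and of the glucocorticoid-responsive genes 11 of 16 rose and none fell. Lists with a negative median for injured minus spared included podocyte markers, whose list means overlapped. Of these markers 8 of 14 fell and 1 rose with cisplatin. Of endothelial markers 7 of 17 fell, of fibroblast and mural cell markers 7 of 18, of cell cycle genes 11 of 36 and of cholesterol genes 8 of 28 (1 rose). Extracellular matrix genes, with the most lower genes in injured kidneys, had 6 of 32 that fell and 1 that rose (median -0.06). Cytochrome P450, UGT and sulfotransferase genes went both ways, with 10 of 33 that rose and 7 that fell (median 0.24 against -0.53 between the 7-HCG sets). In 12 of 36 lists the medians of the contrasts had opposite signs, and in 2 of these both medians were beyond 0.5. These were adipose tissue markers (0.75 for injured minus spared, -5.72 for cisplatin minus control) and neutrophil markers (-0.79 and 1.85, over 6 genes). Adipose list means were 5.42 and 7.43 in control replicates 2 and 5 against 0.50 to 2.27 in the other controls and 0.35 to 1.74 in cisplatin kidneys. Neutrophil list means were 1.37 and 1.56 in cisplatin replicates 9 and 10 against -1.52 to -0.99 in the other cisplatin kidneys and -1.15 to -0.80 in controls. Heat shock genes had a median of 0.13 between the 7-HCG sets, with 3 of 17 higher without overlap, and 4 of 17 fell with cisplatin. Hspb1, for a small heat shock protein, was at 24.7, 26.7 and 31.0 CPM in spared and 39.2 to 186 CPM in injured kidneys, while control replicates 2 and 5 had 133 and 139 CPM and the other controls 22.7 to 29.0.

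The 2 genes that were higher in injured kidneys and fell with cisplatin were Adgrf1, for an adhesion G protein-coupled receptor, and Ivl, for the epithelial envelope protein involucrin. They are named after their values were seen. Adgrf1 stood at 0.395, 0.516 and 0.443 CPM in spared and 0.641 to 1.44 CPM in injured kidneys, with 21.9 and 28.9 CPM in control replicates 2 and 5 and at most 0.832 CPM in the other controls. Ivl had no count in any spared kidney and 0.0401 to 0.952 CPM in injured ones, with 5.45 and 3.26 CPM in control replicates 2 and 5 and at most 0.181 CPM in the other controls. Without those 2 controls the cisplatin difference was 0.84 for Adgrf1 and -0.20 for Ivl on the log2 scale, and neither was called.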

How the data were processed

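Messenger RNA was sequenced from 20 whole kidneys, after polyadenylated RNA was selected (integrity number 7 or higher), per the labels' protocols. Per the file headers, the authors deposited raw read counts per gene and library, used here as whole numbers. Tools named in the submitters' processing notes, with no version, are HISAT2, StringTie, DESeq2, Trimmomatic and FastQC, and the build is mm10 (GRCm38). How reads were counted, with which strand setting and annotation, is not given in the sources used here, so overlapping genes (14 of the 88 genes named) and close copies may share reads.

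Groups came from sample titles, and the injured and spared sets from Mt2 as described. The members and the 36 gene lists were chosen with earlier results of these data known. Some genes, such as Gdf15, Lcn2, Pdk4, Col1a1 and Col3a1, are on more than 1 list, so the lists are not independent. Of 25638 genes, edgeR 4.0.16 in R 4.3.3 kept 14858 (filterByExpr by group). CPM used TMM-scaled library sizes, and log2 CPM a prior count of 2. A gene stood apart when the 3 spared and 7 injured libraries did not overlap. Cisplatin was compared with control in 1 robust quasi-likelihood fit of all 20 libraries with 16 residual degrees of freedom (common biological coefficient of variation 0.374), adjusted by Benjamini-Hochberg at 0.05, a step tested on simulated data. Replicates are separate animals. No pair of 7-HCG libraries of 1 dose was a repeat (chi-square per degree of freedom 56.1 to 416 over 20 pairs). Depth was 10714532 to 49602115 counts per library, where 3 counts equal 0.0497 to 0.375 CPM. Intervals and floors cover counting error only, since reads that carry no molecular identifier do not count molecules independently.

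The rule for named genes took a panel of 20, the 12 highest and 12 lowest differences among genes that stood apart at a mean of at least 5 CPM, and up to 4 members of each list, 159 genes in all, from which the text selected after seeing values. Promoter sequences are from RefSeq. Alternatives used DESeq2 1.42.0 and limma 3.58.1, other scalings, filters, thresholds and sets of libraries.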

Additional observations from a re-analysis of the deposited data

Results flagged for a closer look

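A library was set apart where its gap to the nearest other library of its set took an unusually large share of the range (Dixon's test at the 95% level), over 273 combinations of a measure and a set. The test marked 21 (7.69%), where chance alone marks about 1 in 20. Cisplatin replicate 9 was the highest of its group for Fga (217.5 CPM), Col3a1 (73.39), Emcn (91.66) and Ehd3 (40.83), and the lowest for Krt20 (4.9), Plin2 (102.3) and Plin1 (0, no count). Cisplatin replicate 10 was the highest for Mapk14 (135.8 CPM), Mapk13 (137.8) and Dusp8 (43.28). Control replicate 5 was the lowest control for Gsta1 (0.1106 CPM) and Cyp51 (68.47).

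Among the injured kidneys, replicate 6 at 30 mg/kg was the highest for Casp8 (66.16 CPM) and Btg2 (241.5) and the lowest for Inmt (67.04), Emcn (4.467) and Plvap (9.703). Replicate 8 at 30 mg/kg was the lowest for Clu (977.8 CPM), replicate 2 at 15 mg/kg the lowest for Pck1 (1263), and replicate 5 at 15 mg/kg the highest for Hbb-bs (0.6791). Replicate 7 at 30 mg/kg was the deepest injured library, with 49602115 counts. The spared set holds 3 kidneys and was not examined in this way.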

How the results depend on the processing

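The 88 named differences between injured and spared kidneys were recomputed under other scalings, filters, thresholds, doses and sets of libraries. The differences of Bcl2, Slc22a6 and Plin1, genes that overlapped, changed sign in at least 1 setting and those of the other 85 did not. Of the 36 list medians, those of amino acid catabolism, adipose, clock, zinc and polyamine genes changed sign in at least 1 setting. The counts of genes at least 2-fold apart, 340 higher and 405 lower, became 668 and 668 with no size limit, 113 and 61 at 4-fold, 633 and 956 within 15 mg/kg, 1736 and 1142 within 30 mg/kg, and 558 and 757 without the kidney nearest the Mt2 threshold on each side. Fewer libraries and no size limit let more genes stand apart by construction. With 1 kidney left out they ranged from 319 to 516 and from 366 to 659. Of the higher genes, those that rose with cisplatin (170) numbered 288 at any size, 74 at 4-fold, 280 within 30 mg/kg, 84 with library totals, 96 without cisplatin replicates 9 and 10, 55 without control replicates 2 and 5, and 122 to 223 with 1 library left out. Of the lower genes, those that fell (109) numbered 19 at 4-fold, 240 within 15 mg/kg, 205 within 30 mg/kg, 164 without the kidneys nearest the threshold, 32 without control replicates 2 and 5, and 53 to 172 with 1 library left out. All cisplatin calls (1250 up, 744 down) numbered 207 up with library totals, 789 up with control and cisplatin libraries alone in the fit, and 335 up and 356 down without cisplatin replicates 9 and 10. They were 176 up and 116 down without control replicates 2 and 5, and DESeq2 called 1198 down. With 1 library left out they ranged from 518 to 1412 up and from 311 to 882 down. Leaving out cisplatin replicate 10 gave 518 up and 311 down, control replicate 2 gave 627 and 352, control replicate 5 gave 714 and 410, and cisplatin replicate 2 gave 477 down. The lower genes that fell were 69 without control replicate 2, 69 without cisplatin replicate 2, 53 without cisplatin replicate 10, 172 without cisplatin replicate 9, 168 without spared replicate 1 at 15 mg/kg and 167 without spared replicate 1 at 30 mg/kg. Adgrf1 reversed to 0.84 without control replicates 2 and 5. Beyond those built into an alternative, the cause of these shifts was not tested. Control and cisplatin share replicate number 2 alone, so the numbers do not pair their kidneys. A fit with the replicate number as a block called 7 genes up and 10 down, of which 3 higher and 3 lower genes belong to the sets above, and it ended all 20 calls among the 22 genes with a printed test. Same-numbered kidneys of the 2 doses had deviations correlated at 0.00209 to 0.234 in 3 pairs. Depth limits statements on genes near 3 counts, such as Ivl, Saa1 and the T cell and neutrophil markers. With 3 spared kidneys, 2 of them at 15 mg/kg, the spread of the spared set is poorly known, and the sets were made from these same libraries.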

Other observations

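Single members of 3 smaller gene lists stood apart between injured and spared kidneys, where 4.50% of all genes were higher and as many lower. Of 14 polyamine genes 3 were higher in injured kidneys and none was lower, while the list median was 0.02 and changed sign between settings. Arg2, for the mitochondrial arginase that makes ornithine, was at 14.8, 4.13 and 6.97 CPM in the spared kidneys and 27.96 to 199.6 CPM (median 58.1) in the injured ones. Sat1, for the enzyme that acetylates spermidine and spermine, was at 267, 210 and 258 against 327 to 499 CPM. Of 16 zinc handling genes other than Mt1 and Mt2, 1 was higher (6.25%, near the share of all genes) and none was lower (median 0.18). Of 14 genes of the vitamin D, Klotho and phosphate axis 1 was higher and 2 were lower (median -0.29).

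Tnfrsf12a, for the TWEAK receptor FN14, was at 56.0, 18.3 and 34.6 CPM in spared and 89.9 to 482 CPM (median 258) in injured kidneys. Sprr2g, an epithelial envelope gene of a family of close copies, was at 0.395, 0.103 and 0.35 against 2.77 to 37.7 CPM. Gldc, for the glycine-cleaving enzyme of mitochondria, was at 98.7, 58.8 and 98.1 against 131 to 214 CPM, and all 3 spared kidneys lay above the controls (15.6 to 48.1 CPM). Kcng1, for a modifier subunit of potassium channels, was at 4.55, 7.85 and 5.90 CPM in spared and 0.482 to 1.97 CPM in injured kidneys.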
